A study of Mus musculus with 18 samples.

Results

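The genes described here are the glucose transporter Slc2a1 and 9 enzymes of glycolysis and lactate production, Hk2, Pfkp, Pfkl, Aldoa, Gapdh, Pgk1, Eno1, Pkm and Ldha, in mouse intestinal dendritic cells (DCs). They were chosen by symbol. Of the 54232 genes in the count table, 11 carried 1 of the 10 symbols, because Aldoa was listed under 2 Ensembl identifiers. The second Aldoa entry (ENSMUSG00000114515), a model upstream of the gene, held at most 25 counts in any library, and Aldoa below is ENSMUSG00000030695. All 10 genes passed the filter on low counts. The RNA-seq libraries came from C57BL/6J mice with the genotype CD11a KO, in which the integrin subunit encoded by Itgal is targeted. The series held 3 DC subsets, CD11b+, CD103+ and double-positive (DP) for both, each taken from the small intestinal lamina propria (LP) and from intestinal lymph nodes (LN), with 3 libraries in each of the 6 groups. All groups carried the knockout and no wild-type library was analysed here, so the values compare tissues and subsets of knockout mice and give no effect of the genotype. The labels describe the sorting gate for C57BL/6 DCs only. They give neither an age nor a treatment for the mice of these libraries, and nothing in them says that replicates came from separate animals, so the p-values measure only the spread between these samples, which may be technical.

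Glycolysis splits glucose into pyruvate. Glucose enters through transporters such as GLUT1 (Slc2a1), hexokinase traps it as a phosphate ester, phosphofructokinase commits it to the pathway, and the later enzymes from aldolase to pyruvate kinase yield ATP and NADH. Lactate dehydrogenase turns pyruvate into lactate and restores NAD. Most steps are served by several isoenzymes encoded by separate genes, and activated DCs are known to raise glycolysis, while HIF-1 and MYC are known activators of many of these genes.

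Total counts per library lay between 23574292 and 46901985. The DC genes Flt3 and Zbtb46 were read in every library, at 330.0 to 1058 and 161 to 260.0 CPM (counts relative to the library total, with totals scaled by TMM). The 6 DC markers that include them summed to 76002 to 92050 CPM in LP and 22260 to 56263 CPM in LN libraries. They were lower in LN for 0, 4 and 2 and higher for 0, 0 and 1 in CD11b+, CD103+ and DP DCs. Shares of all genes were 4.93%, 15.1% and 13.6% lower and 10.3%, 19.8% and 18.6% higher. In LN CD103+ DCs H2-Ab1 lay at 3517 to 3622 CPM, against 27198 to 28443 CPM in LP CD103+ DCs. Itgae, which encodes CD103, was read at 27.0 to 49.1 CPM in the LN CD103+ and DP libraries and at 714 to 1440 CPM in their LP counterparts, and Itgam, which encodes CD11b, at 13.8 to 25.7 CPM in LN CD11b+ and 4.85 to 5.76 in LN DP against 55.3 to 68.1 in LP CD11b+ and 63.2 to 76.4 in LP DP. Both labelled markers were thus lower as RNA in the lymph nodes than in the lamina propria. Itgal was still read at 6.45 to 26.6 CPM, which does not test the knockout, as the targeted exons are not known here. All 10 T cell markers were higher in LN than in LP libraries of each subset, with sums of 10.2 to 48.4 CPM in LP and 843 to 1381 CPM in LN libraries and no marker under 10 CPM in any LN library. Of 8 markers of DC maturation, among them Ccr7, 7 were higher in each subset and 1 was lower in CD103+ DCs, with sums of 847 to 1728 CPM in LP and 3861 to 25662 CPM in LN libraries. Ddx3y, a gene of the Y chromosome, was read at 50 to 74.4 CPM in the 9 LP libraries, at 58.0 and 52.2 CPM in replicate 3 of LN CD11b+ and of LN DP, and at no more than 0.351 CPM in the other 7 LN libraries. Xist, which cannot be told from its antisense partner where strand is ignored, lay at 15.4 to 89.1 CPM in LN and at no more than 0.286 CPM in LP libraries. Tissue and sex of the animals therefore cannot be told apart in any comparison of LN with LP. In bulk samples fewer cells of a type and less RNA per cell cannot be told apart either.

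The 10 genes differed in where they were highest. The highest mean level was in an LP group for 6 genes (Slc2a1, Hk2, Pfkp, Eno1, Pkm and Ldha) and in an LN group for 4 (Pfkl, Aldoa, Gapdh and Pgk1). With total counts in place of TMM scaling the highest group of Gapdh and of Pgk1 was an LP group as well. Between groups the mean CPM of a gene spanned 1.44-fold (Pfkl) to 20.8-fold (Hk2), while the coefficient of variation within groups averaged 4.28% to 11.1% by gene. Summed per length as TPM (counts per exon length, scaled to the same total in each library), the 10 genes reached 4982 ± 100 (SD, n = 3) in LP CD11b+, 5246 ± 256 in LP CD103+ and 5609 ± 220 in LP DP DCs. The sums were 3231 ± 124 in LN CD11b+, 3794 ± 150 in LN CD103+ and 2584 ± 31.8 in LN DP DCs. All 9 LN libraries lay under all 9 LP libraries in this sum. Ldha alone had mean TPM of 1422, 1906 and 1744 in LP CD11b+, CD103+ and DP DCs. In the matching LN groups it had 744, 274 and 293. Aldoa and Gapdh were higher in LN than in LP CD103+ DCs, at 1208 against 669 and 1494 against 1331 TPM. A sum without Ldha was not computed, so the order of the sums does not describe each gene. The sum leaves out isoenzymes that were not chosen, such as the enolase Eno3. Eno3 lay at 1142 to 1259 TPM in LN CD103+ and at 23.1 to 34.8 TPM in LP CD11b+ DCs, and a sum with all isoenzymes was not computed.

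**Figure D1:**
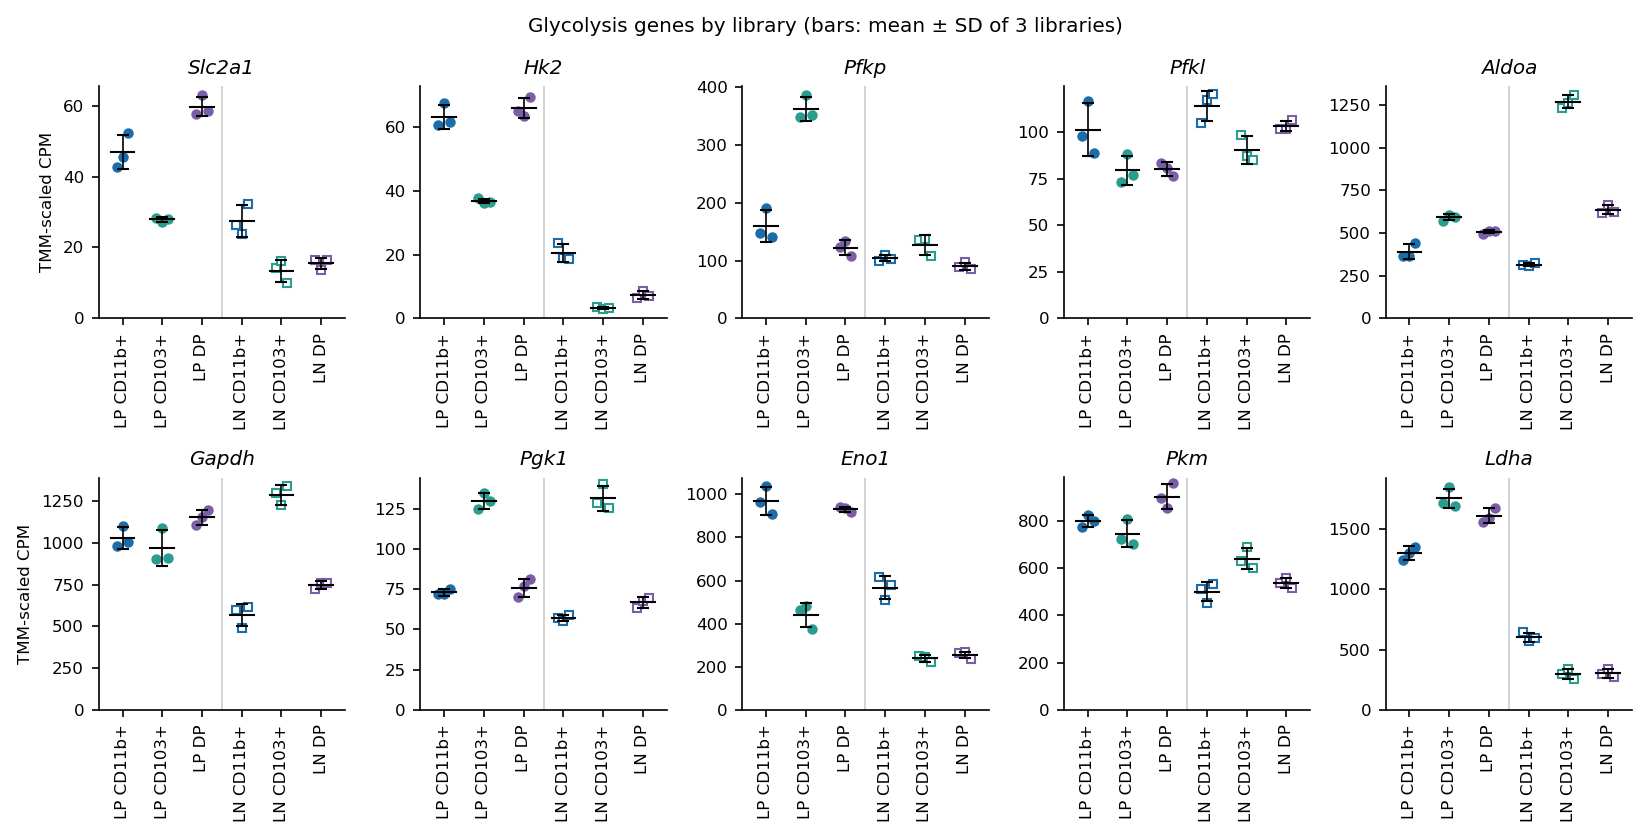
Level of each of the 10 glycolysis genes in TMM-scaled CPM (vertical axes, each starting at 0) for 3 libraries of each DC subset in lamina propria (LP) and lymph nodes (LN), with bars for the mean ± SD. Hk2, Pkm and Ldha lay lower in all 9 LN libraries than in any LP library, Aldoa peaked in LN CD103+ at 1235 to 1312 CPM, and Pfkl stayed within 73.0 to 120.2 CPM.

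How far a read can be given to 1 of these genes differed between them. Per the methods of the study, which are stated for its other libraries, reads with a unique alignment were counted without regard to strand. Of all 75-base windows of a coding transcript (75 is the read length in the labels), 80.3% for Gapdh recurred in transcripts of 121 other annotated genes, 67.5% for Pgk1, 65.4% for Eno1 and 19.6% for Pkm. The levels of these genes are therefore uncertain against other genes. For Pfkp, 16.6% of the windows lay in transcripts of Pitrm1, which overlaps it on the opposite strand. The share was 5.23% for Ldha, 1.49% for Aldoa and 0.97% for Slc2a1, and no window of Hk2 or Pfkl recurred.

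In CD11b+ DCs 2 of the 10 genes, Hk2 and Ldha, were lower in lymph nodes than in lamina propria at an adjusted p under 0.01 and a change of over 2-fold (edgeR's quasi-likelihood test, Benjamini-Hochberg over 17074 genes), and none was higher, against 4.93% of all genes lower and 10.3% higher. In CD103+ DCs 4 genes fell (Slc2a1, Hk2, Pfkp and Ldha) and 1 rose (Aldoa), against 15.1% of all genes lower and 19.8% higher. In DP DCs 4 genes fell (Slc2a1, Hk2, Eno1 and Ldha) and none rose, against 13.6% lower and 18.6% higher. The median log2 fold change of the 10 genes was -0.72 in CD11b+, -0.55 in CD103+ and -0.69 in DP DCs, beside medians of 0.03, 0.04 and 0.07 over all genes. Slc2a1, Hk2, Pfkp, Eno1, Pkm and Ldha had negative and Pfkl had positive values in all 3 subsets, although Pfkl turned to -0.038 in CD103+ DCs with total counts, and only Hk2 and Ldha passed the test in each subset. Over all 18 libraries Hk2, Pkm and Ldha were lower in every LN than in every LP library, which held for 7.61% of all genes, and none of the 10 was higher in every LN library, against 10.2% of all genes. Total counts without scaling moved the median of all genes from 0.03 to 0.17 in CD11b+, from 0.04 to -0.18 in CD103+ and from 0.07 to -0.10 in DP DCs. Other markers moved with tissue beside those of T cells and maturation. Of 6 markers of cDC1, the CD103+ single-positive type, 1, 5 and 1 were lower and 2, 0 and 3 higher in CD11b+, CD103+ and DP DCs. Their sums in CD103+ DCs were 8559 to 8952 CPM in LP and 1912 to 1989 CPM in LN. Of 5 markers of cDC2, the CD11b+ type, 3, 2 and 4 were lower and 0, 2 and 0 higher. In DP DCs these summed to 2522 to 3007 CPM in LP and 196 to 239 CPM in LN. Macrophage markers were lower for 7, 5 and 8 and higher for 0, 2 and 0 of 10 in CD11b+, CD103+ and DP DCs, with sums of 1341 to 17243 CPM over LP and 140.0 to 4431 CPM over LN libraries (Fcgr1 at 0 in LN CD103+). Epithelial markers were lower for 7, 2 and 5 of 9 tested, with sums of 56.7 to 840.0 and 24.7 to 65.4 CPM (Alpi at 0 in LN CD11b+ and LN DP, Muc2 in LN CD11b+ and LN CD103+). B cell markers were higher for 5, 4 and 5 of 6 tested, and lower for 1 in CD103+, with sums of 385 to 590.0 and 266 to 1036 CPM. The part of all these markers in the differences was not tested.

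**Figure D2:**
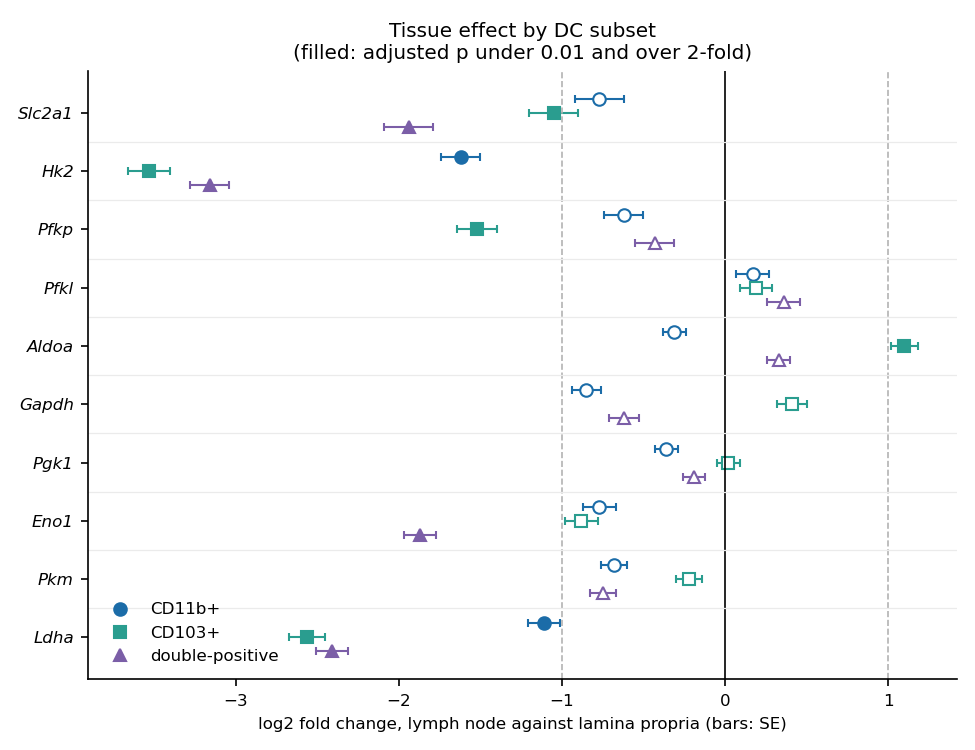
Log2 fold change of lymph node against lamina propria, with bars for the standard error, for the 10 genes in CD11b+, CD103+ and DP DCs. Hk2 and Ldha lie beyond -1 in all 3 subsets, and Aldoa in CD103+ DCs, at 1.10, is the only gene called higher.

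Hk2 (chr6:82725025-82774454, minus strand, GRCm38), the inducible hexokinase that can bind to mitochondria, spanned the widest range. It was read at 60.8, 67.7 and 61.6 CPM in LP CD11b+, at 37.7, 36.4 and 36.5 CPM in LP CD103+ and at 65.1, 63.5 and 69.7 CPM in LP DP DCs. In the lymph nodes it lay at 23.7, 19.1 and 18.8 CPM in CD11b+, at 3.48, 2.87 and 3.20 CPM in CD103+ and at 6.52, 8.69 and 6.89 CPM in DP DCs. The groups followed the order LP DP, LP CD11b+, LP CD103+, LN CD11b+, LN DP and LN CD103+, and of neighbours in that order only LP DP and LP CD11b+ overlapped. Hk2 was 3.08-fold lower in LN than in LP CD11b+ DCs (log2 fold change -1.62 ± 0.12 SE, adjusted p = 2.2e-08), 11.6-fold lower in CD103+ (-3.53 ± 0.13, 1.2e-12) and 8.95-fold lower in DP DCs (-3.16 ± 0.12, 3.9e-12). The log2 tissue effect in CD103+ and in DP DCs differed from that in CD11b+ DCs by -1.91 ± 0.17 and -1.54 ± 0.16 (adjusted p = 1.8e-07 and 3.4e-06).

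Ldha (chr7:46841475-46855627, plus strand) encodes the lactate dehydrogenase subunit that favours lactate production. Its levels in lamina propria were 1242, 1306 and 1356 CPM in CD11b+, 1720, 1850 and 1696 CPM in CD103+ and 1557, 1597 and 1678 CPM in DP DCs. In lymph nodes they were 643, 569 and 599.7 CPM in CD11b+, 296, 341 and 258 CPM in CD103+ and 298, 339 and 272 CPM in DP DCs. The subset with the highest level in lamina propria, CD103+, overlapped DP at the lowest level in lymph nodes, and all other neighbours in the order were apart. Ldha was 2.16-fold lower in LN CD11b+ (-1.11 ± 0.10, adjusted p = 3.2e-07), 5.88-fold lower in LN CD103+ (-2.56 ± 0.11, 3.3e-12) and 5.32-fold lower in LN DP DCs (-2.41 ± 0.10, 1.1e-11). With total counts in place of TMM the value in CD11b+ DCs was -0.97, under the 2-fold limit. The tissue effect in CD103+ and DP DCs differed from that in CD11b+ DCs by -1.45 ± 0.14 and -1.30 ± 0.14 (adjusted p = 5.1e-07 and 4.1e-06).

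Slc2a1 (chr4:119108711-119137983, plus strand) encodes GLUT1. It was read at 42.8, 45.6 and 52.3 CPM in LP CD11b+, at 28.4, 27.2 and 28.1 CPM in LP CD103+ and at 57.8, 62.9 and 58.5 CPM in LP DP DCs, and in lymph nodes at 26.2, 23.9 and 32.3 CPM in CD11b+, 14.3, 16.1 and 10.1 CPM in CD103+ and 16.4, 13.7 and 16.5 CPM in DP DCs. Within each subset no LN library reached the LP range, while LP CD103+ overlapped LN CD11b+ and LN DP overlapped LN CD103+. The transporter fell 2.07-fold in CD103+ DCs (-1.05 ± 0.15, adjusted p = 1.3e-05), where leaving out LN CD103+ replicate 3 gave -0.90 and ended the call, and 3.84-fold in DP DCs (-1.94 ± 0.15, 1.2e-08). In CD11b+ DCs the difference was -0.77 ± 0.15 (adjusted p = 5.8e-04) and did not reach 2-fold.

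Eno1 (chr4:150236721-150248879, plus strand), the widely expressed enolase, was read at 965, 1037 and 906 CPM in LP CD11b+, 462, 484 and 375 CPM in LP CD103+ and 939, 936 and 916 CPM in LP DP DCs. In lymph nodes it lay at 615, 508 and 578 CPM in CD11b+, 249, 247 and 222 CPM in CD103+ and 262, 266 and 237 CPM in DP DCs. LP CD11b+ and LP DP overlapped at the top, and LN DP and LN CD103+ at the bottom. It fell 3.65-fold in DP DCs (-1.87 ± 0.10, adjusted p = 1.3e-10). The differences in CD11b+ (-0.77 ± 0.10, 1.1e-05) and CD103+ DCs (-0.88 ± 0.10, 7.2e-07) stayed under 2-fold, although that in CD103+ DCs was -1.10 with total counts and -1.05 without LP CD103+ replicate 3, both past the limit. The entry of its retrogene Eno1b held 1.66 to 9.04 CPM.

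The 2 phosphofructokinases, which commit sugar to glycolysis, differed. Pfkp (chr13:6579768-6648777, minus strand), the platelet type, was read in lamina propria at 149, 192 and 141 CPM in CD11b+, 349, 387 and 352 CPM in CD103+ and 124, 134 and 108 CPM in DP DCs, and in lymph nodes at 99.8, 109.8 and 103 CPM in CD11b+, 136, 137 and 107 CPM in CD103+ and 89.2, 97.1 and 85.5 CPM in DP DCs. LP CD103+ DCs stood above all other libraries. Pfkp was 2.86-fold lower in LN than in LP CD103+ DCs (-1.52 ± 0.12, adjusted p = 1.1e-08), and did not reach 2-fold in CD11b+ (-0.62 ± 0.12) or DP DCs (-0.43 ± 0.12). Pfkl (chr10:77986947-78010083, minus strand), the liver type, ranged over 73.0 to 117 CPM in LP and 85.2 to 120.2 CPM in LN libraries. Its log2 differences between tissues were 0.17 ± 0.10, 0.19 ± 0.10 and 0.36 ± 0.10 in CD11b+, CD103+ and DP DCs (adjusted p = 0.18, 0.12 and 0.0046), and none was called.

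Aldoa (chr7:126795234-126800751, minus strand), the aldolase that splits fructose 1,6-bisphosphate, was higher in the lymph nodes in CD103+ DCs. It was read in lamina propria at 366, 366 and 443 CPM in CD11b+, 573, 608 and 597 CPM in CD103+ and 497, 512 and 514 CPM in DP DCs, and in lymph nodes at 313, 309 and 324 CPM in CD11b+, 1235, 1265 and 1312 CPM in CD103+ and 618, 666 and 625 CPM in DP DCs. All 6 groups were apart in range. Aldoa rose 2.14-fold in CD103+ DCs (1.10 ± 0.08, adjusted p = 1.7e-09), but with total counts in place of TMM the value was 0.88, under the limit. The differences in CD11b+ (-0.31 ± 0.07, 0.0034) and DP DCs (0.33 ± 0.07, 0.0012) had opposite signs and did not reach 2-fold.

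Gapdh (chr6:125161715-125166467, minus strand), Pgk1 (chrX:106187100-106203699, plus strand) and Pkm (chr9:59656368-59679375, plus strand), which encode the enzymes that make NADH, the first ATP and pyruvate, were not called in any tissue comparison. Gapdh was read in lamina propria at 980.0, 1100 and 1002 CPM in CD11b+, 902, 1090 and 911 CPM in CD103+ and 1106, 1152 and 1198 CPM in DP DCs, and in lymph nodes at 600.2, 490.3 and 613 CPM in CD11b+, 1298, 1223 and 1341 CPM in CD103+ and 722, 758 and 762 CPM in DP DCs. Its log2 differences were -0.85 ± 0.09 in CD11b+, 0.41 ± 0.09 in CD103+ and -0.62 ± 0.09 in DP DCs (adjusted p = 2.7e-06, 0.0011 and 2.5e-05). Gapdh is often used as a constant reference, and its mean CPM here spanned 2.27-fold between LN CD103+ and LN CD11b+. Pgk1, on the X chromosome, lay at 71.9 to 75.4 CPM in LP and 55.1 to 58.8 in LN CD11b+, at 125 to 135 in LP and 126 to 140.2 in LN CD103+, and at 70.1 to 81.1 in LP and 63.2 to 69.4 in LN DP DCs. Its differences were -0.36 ± 0.07, 0.02 ± 0.07 and -0.19 ± 0.07, of which that in CD103+ DCs was -0.21 with total counts. Pkm, pyruvate kinase of most tissues but liver, lay at 703 to 958 CPM over LP and 454 to 690.1 CPM over LN libraries, with differences of -0.68 ± 0.08, -0.22 ± 0.08 and -0.75 ± 0.08 (adjusted p = 7.1e-06, 0.028 and 6.6e-07).

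The promoters of Hk2, Ldha and Slc2a1, which fell in at least 2 subsets, and of Aldoa, which rose in 1, are shown as the 250 bases before and 50 after the annotated start (RefSeq, GRCm38.p6). Capitals mark ACGTG or GCGTG on either strand, the core letters of the hypoxia response element bound by HIF. The letters ACGTG are also part of the E-box CACGTG, which MYC binds, so that each E-box is a match on both strands.
Hk2 (chr6:82774405-82774704, minus strand): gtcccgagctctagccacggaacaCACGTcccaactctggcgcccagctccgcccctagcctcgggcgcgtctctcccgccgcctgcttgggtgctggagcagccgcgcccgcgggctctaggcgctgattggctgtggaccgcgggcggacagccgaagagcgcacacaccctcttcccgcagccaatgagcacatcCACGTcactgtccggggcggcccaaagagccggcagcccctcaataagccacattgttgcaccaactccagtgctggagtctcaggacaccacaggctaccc
Ldha (chr7:46845554-46845853, plus strand): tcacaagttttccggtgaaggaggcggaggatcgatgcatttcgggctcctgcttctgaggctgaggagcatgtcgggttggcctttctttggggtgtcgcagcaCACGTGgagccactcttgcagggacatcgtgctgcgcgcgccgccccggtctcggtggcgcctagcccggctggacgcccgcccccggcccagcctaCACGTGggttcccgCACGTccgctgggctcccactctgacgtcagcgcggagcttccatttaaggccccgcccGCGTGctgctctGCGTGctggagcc
Slc2a1 (chr4:119108495-119108794, plus strand): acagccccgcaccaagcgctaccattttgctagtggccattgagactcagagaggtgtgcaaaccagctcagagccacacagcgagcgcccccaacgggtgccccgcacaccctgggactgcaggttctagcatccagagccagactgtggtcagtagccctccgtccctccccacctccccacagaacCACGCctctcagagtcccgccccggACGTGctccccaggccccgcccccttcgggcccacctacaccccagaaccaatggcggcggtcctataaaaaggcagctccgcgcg
Aldoa (chr7:126799129-126799428, minus strand): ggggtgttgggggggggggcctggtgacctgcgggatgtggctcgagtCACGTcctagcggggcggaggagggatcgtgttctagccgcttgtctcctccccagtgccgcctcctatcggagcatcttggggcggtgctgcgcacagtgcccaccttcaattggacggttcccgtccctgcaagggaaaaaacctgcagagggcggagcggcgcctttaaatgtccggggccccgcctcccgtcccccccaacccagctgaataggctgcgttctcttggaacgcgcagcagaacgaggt
Of all 32851 promoters of that length, 43.8% held ACGTG or GCGTG and 7.2% held CACGTG. With 1 window taken for each of the 10 genes, that of Ldha held CACGTG at 2 places and the other windows held none. ACGTG was present for Slc2a1, Hk2, Aldoa, Gapdh, Pgk1 and Ldha, GCGTG alone for Pfkp, Pfkl and Eno1, and neither for Pkm. Another annotated window of the same gene can differ. A further window of Pkm held ACGTG at 2 places, and a further window of Ldha held GCGTG alone. Genes that fell and genes that did not both carried these letters. A match describes the letters and shows no binding.

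Within the lamina propria, 1 of the 10 genes was called higher and 1 lower in CD103+ than in CD11b+ DCs, against 5.07% and 10.6% of all genes. Pfkp was 2.26-fold higher (1.18 ± 0.12, adjusted p = 6.3e-07) and Eno1 2.20-fold lower (-1.14 ± 0.10, 9.8e-08). Pgk1 (0.83 ± 0.07), Aldoa (0.60 ± 0.07), Hk2 (-0.78 ± 0.11) and Slc2a1 (-0.75 ± 0.15) stayed under the 2-fold limit. Between DP and CD11b+ DCs none of the 10 was called by edgeR, against 1.14% of all genes higher and 3.67% lower. Aldoa, at 0.37 ± 0.07 (adjusted p = 0.0026), missed only the 2-fold limit. The difference of greatest size was -0.39 ± 0.12 (Pfkp, adjusted p = 0.038), and DESeq2 called 0 as well. DP against CD103+ DCs had Slc2a1 higher (1.10 ± 0.15, adjusted p = 1.7e-05), Eno1 higher (1.08 ± 0.10, 2.0e-07) and Pfkp lower (-1.57 ± 0.12, 2.6e-08), beside 8.10% of all genes higher and 5.52% lower. Without LP CD103+ replicate 3 the value for Eno1 was 0.96 and its call ended. Macrophage markers summed to 7481 to 17243 CPM in LP CD11b+, 1341 to 1453 in LP CD103+ and 3273 to 4236 in LP DP DCs, and their part in these differences was not tested.

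Within the lymph nodes the CD103+ subset differed from CD11b+ in both directions. There 3 genes were higher, Aldoa 4.03-fold (2.01 ± 0.08, adjusted p = 6.3e-12), Pgk1 2.31-fold (1.21 ± 0.07, 4.3e-10) and Gapdh 2.27-fold (1.18 ± 0.10, 2.2e-08), beside 10.2% of all genes. In the same comparison 4 genes were lower, Hk2 6.44-fold (-2.69 ± 0.13, 5.5e-11), Eno1 2.37-fold (-1.25 ± 0.10, 1.9e-08), Slc2a1 2.04-fold (-1.03 ± 0.15, 2.3e-05) and Ldha 2.02-fold (-1.02 ± 0.10, 2.6e-07), beside 15.6% of all genes. Gapdh and Pgk1 lost the call with total counts (0.75 and 0.78), and Slc2a1 and Ldha with DESeq2 size factors (-0.98 and -0.97). Leaving out LN CD103+ replicate 3 gave -0.87 for Slc2a1 and -0.94 for Ldha, and leaving out LN CD11b+ replicate 3 gave -0.92 for Slc2a1, all under the limit. Without both LN libraries that held Xist and Ddx3y reads Slc2a1 stood at -0.89, and with only the libraries compared Slc2a1 stood at -0.99 and Ldha at -0.98, which ended these calls too. Total counts moved the median of all genes from -0.13 to -0.56 and the share of calls that were higher from 39.6% to 19.5% in this comparison. Pfkp and Pkm, not called, stood at 0.28 ± 0.12 and 0.36 ± 0.08 and turned negative with total counts. Macrophage markers were lower for 7 of 10 in this comparison (2705 to 4431 CPM summed in LN CD11b+ and 140.0 to 167 in LN CD103+), plasma cell markers for 4 of 5 (4885 to 6506 and 936 to 1237), B cell markers for 4 of 6 tested (546 to 1036 and 266 to 293) and proliferation markers for 6 of 10. Maturation markers were higher for 6 of 8 (3861 to 6133 and 24311 to 25662). Their part was not tested.

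LN DP against CD11b+ DCs had Hk2 (-1.48 ± 0.12, adjusted p = 5.6e-08) and Eno1 (-1.15 ± 0.10, 1.0e-07) lower and Aldoa higher (1.01 ± 0.08, 2.1e-08), beside 9.82% of all genes lower and 6.92% higher. Aldoa lay so near the limit that its call ended with total counts (0.64) and, at 0.97 to 0.99, when any of 7 libraries was left out (LP CD11b+ 1, 2 and 3, LP CD103+ 3, LN CD11b+ 1 and 2, and LN DP 2). Ldha, at -0.99 ± 0.10 under the limit, was called at -1.0 with the replicate number as a block within tissue, at -1.36 with total counts, at -1.01 with no filter and with at least 100 counts, and at -1.09 to -1.01 without any of 10 libraries (LP CD11b+ 1, 2 and 3, LP CD103+ 3, LN CD11b+ 2 and 3, LN CD103+ 1, 2 and 3, and LN DP 2). With total counts Slc2a1 (-0.82 ± 0.15) was called at -1.18, the median of all genes moved from -0.08 to -0.44 and the share of calls that were higher from 41.3% to 19.3%. LN DP against CD103+ DCs had 1 gene called, Hk2, which was higher (1.21 ± 0.13, adjusted p = 3.7e-06), beside 4.69% of all genes higher and 1.84% lower. Aldoa (-1.0 ± 0.08) and Pgk1 (-0.98 ± 0.07) lay just under the limit, and 1 of them passed it without LN CD103+ replicate 1 or LN DP replicate 2 (Aldoa, -1.01 and -1.02) or without LN CD103+ replicate 3 or LN DP replicate 3 (Pgk1, -1.0 for both). Aldoa was also called with DESeq2 size factors and the DESeq2 test (-1.02 for both) and with at least 100 counts in at least 3 libraries (-1.0). Pgk1 was also called without both LN libraries that held Xist and Ddx3y reads (-1.0).

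**Figure D3:**
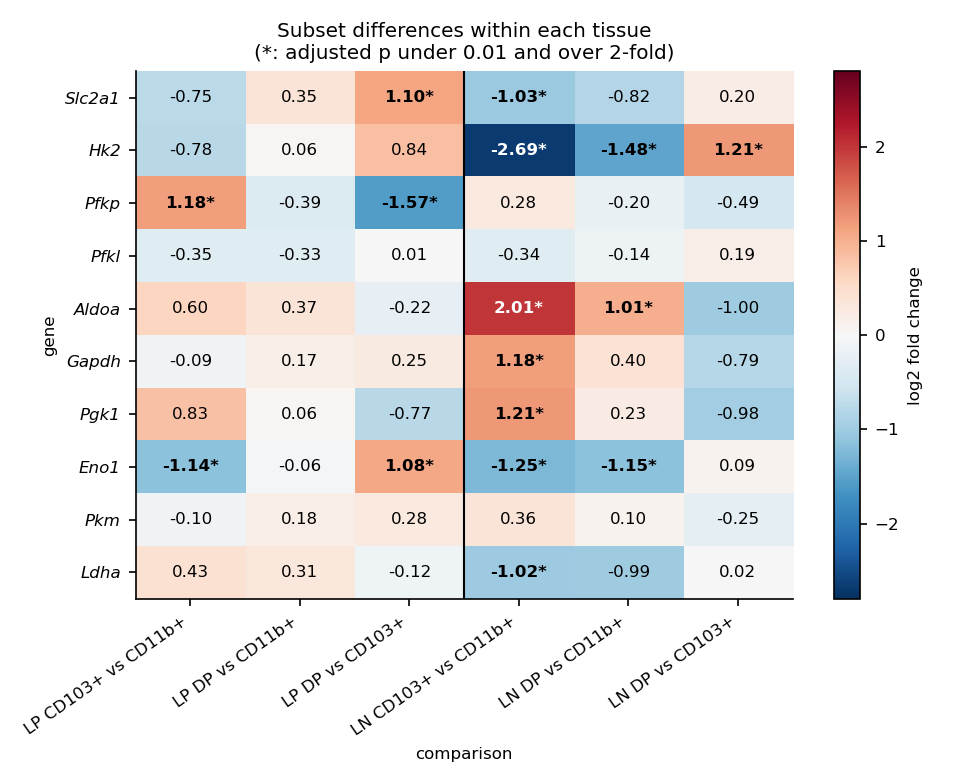
Log2 fold change of each gene in the 6 comparisons of DC subsets within lamina propria (LP) and lymph nodes (LN). The values of greatest size are in LN CD103+ against CD11b+, with Hk2 at -2.69 and Aldoa at 2.01, while no gene is called in LP DP against CD11b+.

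The tissue effect depended on the subset for 8 of the 10 genes (F test of edgeR, adjusted p under 0.01), all but Pfkl (adjusted p = 0.45) and Pgk1 (0.015), beside 31.5% of all genes. Pgk1 was called under DESeq2 size factors (0.0066), the DESeq2 test (8.2e-04) and with at least 100 counts in at least 3 libraries (0.0091). The call of Pkm ended with no filter on low counts (adjusted p = 0.014), without LP CD103+ replicate 3 (0.018) and without LN CD103+ replicate 2 (0.013). Between CD103+ and CD11b+ DCs the tissue effects of Hk2, Aldoa, Gapdh and Ldha differed by over 2-fold (4 of 10, beside 18.5% of all genes), with Aldoa at 1.41 ± 0.11 and Gapdh at 1.27 ± 0.13, which was 0.91 with total counts. Pfkp, at -0.89 ± 0.17, was called at -1.26 with total counts and at -1.10 without LP CD11b+ replicate 2. Slc2a1 (-1.17 ± 0.21), Hk2, Eno1 (-1.09 ± 0.14) and Ldha differed between DP and CD11b+ DCs (4 of 10, beside 11.6%). Pfkp (1.08 ± 0.17) and Gapdh (-1.04 ± 0.13) differed between DP and CD103+ DCs (2 of 10, beside 8.37%). Of these, Pfkp ended at 0.99 without LN CD103+ replicate 3, and Gapdh at -0.96 to -1.0 without LP CD103+ replicate 1 or 3, LN CD103+ replicate 3 or LN DP replicate 1. Without LN CD103+ replicate 3, Slc2a1 and Eno1 were called there at -1.05 and -1.03, and Eno1 also without LP CD103+ replicate 1 or 2 or LN DP replicate 2 (-1.06 to -1.0). DESeq2 size factors and the DESeq2 test called Eno1 there as well, at -1.01 for both. With total counts the share of calls that were higher moved from 50.2% to 29.2% in the first and from 49.0% to 25.3% in the second of these contrasts, and the median of all genes from 0.01 to -0.35 and from 0.01 to -0.30.

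The isoenzymes of the members were compared per length, as shares of the TPM of a family, which do not depend on how libraries are scaled. The shares are descriptions, and those of the enolases and aldolases were added after their values were seen. Among enolases, Eno1 made up 96.3% ± 0.900 (SD, n = 3) in LP CD11b+, 92.2% ± 1.14 in LP CD103+ and 92.7% ± 1.12 in LP DP, but 56.8% ± 5.58 in LN CD11b+, 11.4% ± 1.47 in LN CD103+ and 9.0% ± 0.417 in LN DP DCs. Eno3, the muscle enolase, held 40.4% ± 4.69, 83.1% ± 1.57 and 88.5% ± 0.390 in the 3 LN groups. Eno3 was read at 17.9 to 50 CPM over the LP libraries and at 212 to 267 CPM in LN CD11b+, 1018 to 1192 in LN CD103+ and 1492 to 1609 in LN DP DCs. It rose by 3.48 ± 0.15, 5.58 ± 0.16 and 5.13 ± 0.16 on the log2 scale in CD11b+, CD103+ and DP DCs (adjusted p = 1.2e-10, 1.2e-13 and 6.0e-13). Eno2, the neuronal enolase, rose by 5.74 ± 0.33, 8.23 ± 0.35 and 5.84 ± 0.30, from at most 1.45 CPM in LP to 119.7 to 136 CPM in LN CD103+ DCs. The mean TPM of the 3 enolases together was 818, 386 and 808 in LP and 916, 1435 and 2045 in LN CD11b+, CD103+ and DP DCs. No 75-base window of Eno1 recurred in Eno2 or Eno3, and neither of these overlaps the exons of another gene. However, 65.4% of the Eno1 windows recurred in transcripts of other genes, so its TPM may be too low if only unique alignments were counted. The shares of the enolases and their summed TPM, in LP above all, are uncertain for this reason. Recurring windows of Eno2 and Eno3 were not computed.

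**Figure D4:**
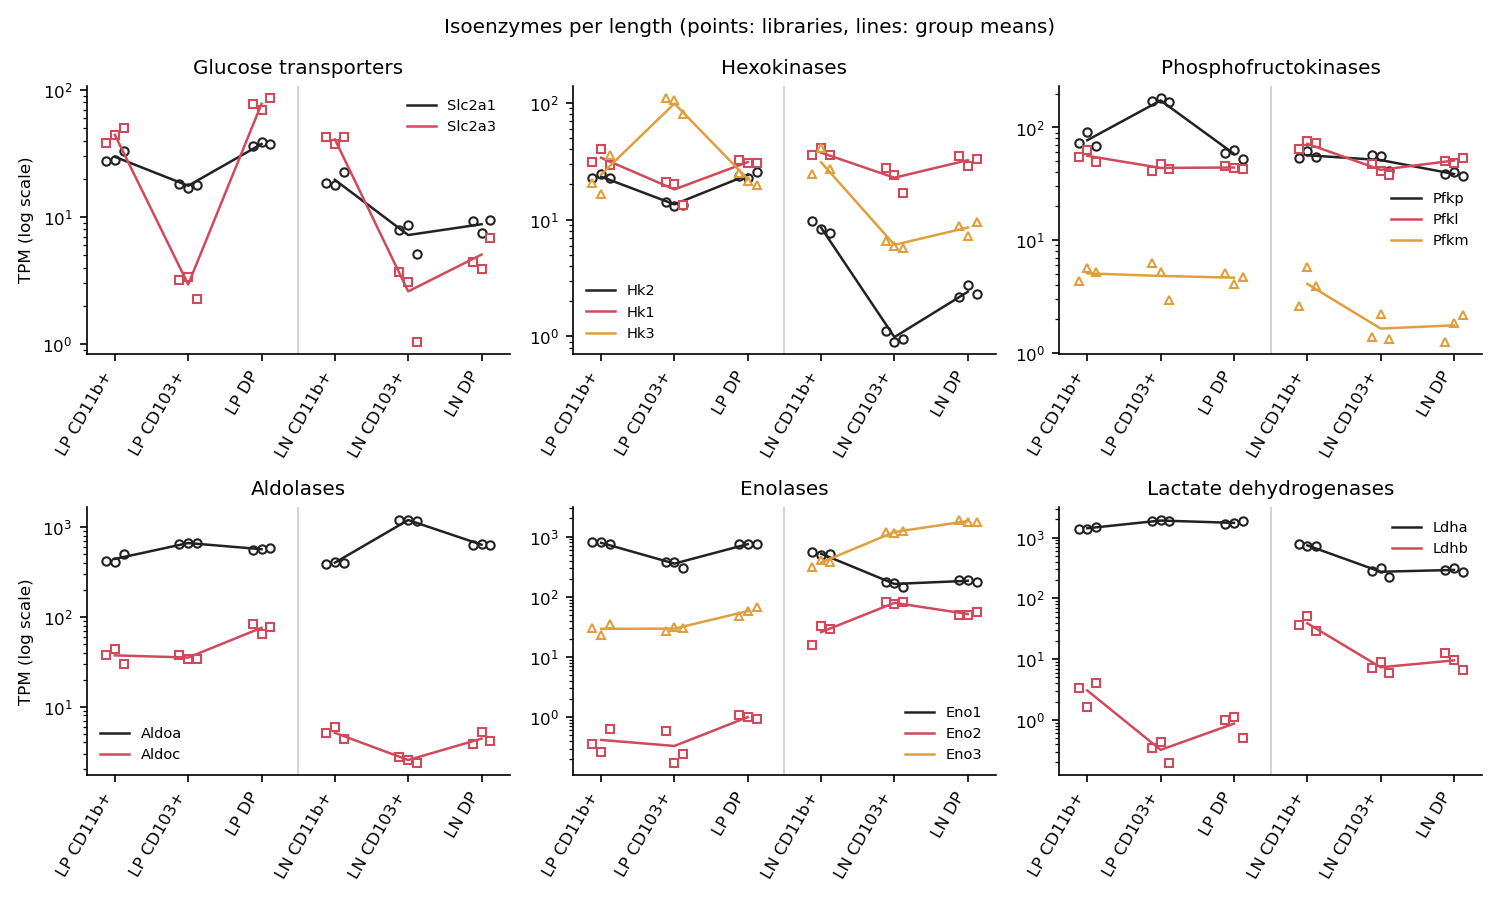
TPM of the isoenzymes of the members' steps in each library of lamina propria (LP) and lymph nodes (LN). Eno3 lies above Eno1 in the LN CD103+ and DP libraries and far below it in LP, and Ldhb stays far under Ldha in every group.

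Hexokinase RNA differed in makeup. Hk2 made up 28.8% ± 2.57 of hexokinase TPM in LP CD11b+, 10.5% ± 1.72 in LP CD103+ and 31.2% ± 2.38 in LP DP, and 11.3% ± 2.45, 3.35% ± 0.567 and 5.64% ± 1.32 in the matching LN groups. Hk1, the constitutive hexokinase, was not called in any subset (-0.03 ± 0.17, 0.57 ± 0.17 and 0.21 ± 0.17) and made up 75.9% ± 3.79 in LN CD103+ and 74.6% ± 1.43 in LN DP DCs. Hk3, a hexokinase of myeloid cells, held 75.7% ± 0.606 in LP CD103+ and fell in CD103+ (-3.78 ± 0.26, adjusted p = 1.4e-09) and DP DCs (-1.23 ± 0.24, 2.7e-04). The mean TPM of the 3 hexokinases together was 81.6, 130.5 and 77.5 in LP and 77.0, 29.9 and 43.3 in LN CD11b+, CD103+ and DP DCs.

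Of the TPM of the glucose transporters Slc2a1 and Slc2a3 (GLUT3), Slc2a1 made up 85.7% ± 2.74 in LP CD103+ and 75.0% ± 7.56 in LN CD103+, against 40.3% ± 1.47 in LP CD11b+ and 32.4% ± 2.16 in LN CD11b+ DCs. In DP DCs its share was 32.7% ± 2.87 in LP and 63.9% ± 5.35 in LN, where Slc2a3 fell by 3.79 ± 0.30 on the log2 scale (adjusted p = 1.1e-08). Slc2a6, which encodes GLUT6 of lysosomal membranes, rose in CD103+ (3.71 ± 0.16, 4.2e-12) and DP DCs (1.92 ± 0.14, 7.3e-09).

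Pfkp held 78.1% ± 0.684 of phosphofructokinase TPM in LP CD103+ and group means of 42.4% to 55.7% elsewhere. Aldoc, the aldolase of brain, fell in all 3 subsets (-3.05 ± 0.16, -3.55 ± 0.17 and -3.94 ± 0.16), and the mean share of Aldoa in aldolase TPM was 88.3% to 95.0% over LP and 98.8% to 99.8% over LN groups. Ldhb, the dehydrogenase subunit that favours pyruvate, rose in all 3 (3.49 ± 0.37, 4.66 ± 0.43 and 3.60 ± 0.39), but Ldha still made up 95.0% ± 1.46, 97.4% ± 0.124 and 96.9% ± 0.848 of the pair in LN CD11b+, CD103+ and DP DCs. Ldhb lay at 16.6 to 27.8 CPM in LN CD11b+ and at 4.65 to 8.71 CPM in LN CD103+ and DP DCs. T cell markers summed to 843 to 1250 CPM in the former and 1005 to 1381 CPM in the latter. B cell markers summed to 546 to 1036 and 266 to 701 CPM, and plasma cell markers to 4885 to 6506 and 897 to 2167 CPM. The part of such cells in the level of Ldhb was not tested. Of the steps that no member covers, Gpi1 (-0.80 ± 0.08, -0.23 ± 0.08 and -0.57 ± 0.08) and Tpi1 (-0.46 ± 0.10, -0.83 ± 0.10 and -0.84 ± 0.10), which isomerise sugar and triose phosphates, were not called. Pgam1, phosphoglycerate mutase, fell in DP DCs (-1.52 ± 0.09, adjusted p = 4.2e-10) and stood at -0.90 ± 0.09 and -0.99 ± 0.09 in CD11b+ and CD103+ DCs.

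The counts for the further gene lists stand beside the shares of all genes called between tissues, which were 10.3% higher and 4.93% lower in CD11b+, 19.8% and 15.1% in CD103+ and 18.6% and 13.6% in DP DCs. Among the other enzymes of glycolysis 14 of 17 listed were tested, of which 2 were higher and 2 lower in LN than LP CD11b+, 3 and 5 in CD103+ and 2 and 5 in DP DCs, with list medians of -0.25, -0.88 and -0.70. Of 6 genes tested that make or remove fructose bisphosphates, 2 were higher and 1 lower in CD11b+, 1 and 0 in CD103+ and 2 and 1 in DP DCs (medians -0.49, -0.66 and -0.49). Pfkfb3, whose product makes the phosphofructokinase activator fructose 2,6-bisphosphate, was read at 42.4 to 65.0 CPM over LP libraries and at 180.2 to 299 CPM in LN CD11b+, 1469 to 1684 in LN CD103+ and 1371 to 1492 in LN DP DCs. It rose by 2.37 ± 0.15, 5.05 ± 0.17 and 4.59 ± 0.17 (adjusted p = 6.6e-09, 4.2e-13 and 1.9e-12). Pfkfb4, of the same family, fell in DP DCs (-2.09 ± 0.22, 4.1e-07). The maturation markers summed to 3861 to 6133 CPM in LN CD11b+ and 19870 to 25662 CPM in LN CD103+ and DP DCs, and their part in the levels of Eno3 and Pfkfb3 was not tested.

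Of 8 pentose phosphate genes, 2, 5 and 4 were lower in LN CD11b+, CD103+ and DP DCs and 0 were higher, beside 4.93%, 15.1% and 13.6% of all genes lower and 10.3%, 19.8% and 18.6% higher (medians -0.65, -1.08 and -1.13). Taldo1, transaldolase, fell in CD103+ (-2.0 ± 0.10) and DP DCs (-1.82 ± 0.10), and G6pdx, which opens the oxidative branch and lies on the X chromosome, fell in CD11b+ (-1.60 ± 0.11) and DP DCs (-2.04 ± 0.11). Of 12 glycogen genes 0 were called in CD11b+, 2 were higher and 1 lower in CD103+ and 2 were higher in DP DCs, so the counts of higher genes in CD103+ and DP DCs lay near the shares of all genes (medians -0.21, 0.11 and 0.45). Gyg, glycogenin, rose in CD103+ (3.34 ± 0.14) and DP DCs (2.64 ± 0.14), and Pygl, glycogen phosphorylase, rose in CD103+ DCs (4.37 ± 0.19) with 12.6 to 19.2 CPM in LP and 325 to 368 CPM in LN libraries. Of 21 genes of glucose, lactate and pyruvate handling, 2, 5 and 5 were higher and 0, 2 and 1 lower in CD11b+, CD103+ and DP DCs, with the higher ones near the shares of all genes (medians -0.27, 0.07 and -0.11).

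Of 14 HIF and MYC regulators, 0, 3 and 2 were higher and 3, 2 and 3 lower in CD11b+, CD103+ and DP DCs, beside 10.3%, 19.8% and 18.6% of all genes higher and 4.93%, 15.1% and 13.6% lower, so that the counts in CD103+ and DP DCs lay near the background (medians -0.20, -0.30 and 0.01). Myc fell in all 3, by 1.45 ± 0.20, 1.57 ± 0.20 and 3.04 ± 0.22 on the log2 scale (adjusted p = 2.7e-05, 4.3e-06 and 3.5e-09), and was read at 52.7 to 140.4 CPM over LP and 12.8 to 47.5 CPM over LN libraries. Hif1a, named after its values were seen, fell in CD11b+ (-1.35 ± 0.12, 3.7e-07) and DP DCs (-1.48 ± 0.12, 3.0e-08), and stood at -0.57 ± 0.12 in CD103+ DCs. Vhl, whose product targets HIF for degradation and which was also named after its values were seen, rose in CD103+ (2.19 ± 0.14, 5.7e-10) and DP DCs (2.48 ± 0.14, 2.0e-10), to 743 to 839 and 583 to 627 CPM. Egln3, a HIF prolyl hydroxylase, was called higher in the same subsets but lay at no more than 2.27 CPM there. Of 15 HIF targets outside glycolysis that were tested, 2, 3 and 2 were higher and 1, 2 and 3 lower, beside the same shares of all genes (medians -0.01, 0.29 and 0.22). Adm, which encodes adrenomedullin, rose in all 3 subsets, from at most 0.916 CPM in LP to 8.18 to 31.9 CPM in LN libraries. Ddit4 was called higher in CD103+ DCs only (3.11 ± 0.54). Ankrd37 stood at -0.95 ± 0.32, -1.03 ± 0.35 and -3.27 ± 0.36 in CD11b+, CD103+ and DP DCs and was called lower in DP DCs only. Proliferation markers, of which 0, 9 and 10 of 10 were lower in LN CD11b+, CD103+ and DP DCs, summed to 868 to 1054 CPM in LP, 612 to 798 in LN CD11b+, 313 to 442 in LN CD103+ and 298 to 366 CPM in LN DP libraries, and their part in these values was not tested.

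Across the 18 libraries the 10 genes did not form a single pattern. Of 45 pairs, 5 had a Pearson r of log2(CPM + 1) over 0.8, all among Slc2a1, Hk2, Eno1 and Ldha, with 0.95 for Slc2a1 with Eno1 and 0.93 for Hk2 with Ldha. Negative values were found for 16 pairs, such as -0.72 for Aldoa with Eno1. Among 8664 genes of at least 10 CPM, the one most like each member was Anxa1 for Ldha (r = 0.995), Akr7a5 for Hk2 (0.993), Gart for Eno1 (0.988), Zdhhc14 for Aldoa (0.987), Tfrc for Slc2a1 (0.982), Rtca for Pgk1 (0.973), Casp6 for Pfkp (0.964), Igsf8 for Pkm (0.961), Tpm3 for Gapdh (0.936) and Rarg for Pfkl (0.911). The libraries share tissues, subsets and scaling factors, so these correlations describe the order of the groups.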

How the data were processed

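RNA of sorted DCs was sequenced in 18 libraries. Per the labels, the reads were 75 bases long, and the submitters' processing notes name STAR 2.6, FastQC 0.11.7 and GRCm38. The authors deposited raw counts per gene in 1 table, whose 18 columns were matched to samples by name. No value in it is normalized. Sums per library were taken as depth. Symbols were matched for 54079 of 54232 identifiers, and groups were taken from the labels.

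Counts were analysed with edgeR 4.0.16 (R 4.3.3, limma 3.58.1) after filterByExpr left 17074 genes, with TMM scaling, a mean per group and all 18 libraries in the quasi-likelihood fit. Genes were called at a Benjamini-Hochberg adjusted p under 0.01 over all genes tested and a change of over 2-fold, the thresholds of the study. CPM are TMM-scaled, and TPM use exon lengths of GENCODE vM21. The 10 members are named throughout. Of each gene list at most the 3 genes of greatest tissue change, and the isoenzymes and missing steps of the members, are named. Hif1a and Vhl are exceptions, added after their values were seen. The members and lists were chosen with earlier results of these data known. The script was tested on simulated counts.

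Replicates of a group differed by more than sampling noise (mean chi-square per gene 14.9 to 64.9). Deviations from group means correlated between same-numbered LP libraries (0.14 to 0.28), so the numbers pair those, but not across tissues (-0.12 to 0.07). Within LN the values were 0 to 0.19. Those of LN CD11b+ with LN DP (0.06 to 0.19) all exceeded the values of unlike numbers (-0.10 to 0.04), so these groups may be paired as well. Replicate 3 of LN CD11b+ and of LN DP held Ddx3y at 58.0 and 52.2 CPM, and no LN CD103+ library exceeded 0.351 CPM. Comparisons with LN CD103+ DCs thus set samples of differing sex makeup side by side. The main fit did not model pairs. Alternatives were DESeq2 1.42.0, its size factors, total counts, other filters, thresholds and samples, replicate blocks, and each library left out. Shares of 75-base windows and promoter motifs were computed from annotated transcripts and RefSeq promoters.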

Additional observations from a re-analysis of the deposited data

Results flagged for a closer look

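The difference between lymph node and lamina propria depended on the DC subset for 8 of the 10 genes, by edgeR's test of both interaction terms together, beside 31.5% of all genes. Pgk1 was called as well under DESeq2 size factors, the DESeq2 test and the filter of at least 100 counts, and the call of Pkm ended in 3 alternatives. Hexokinase Hk2 fell in all 3 subsets, by 1.62 ± 0.12 in CD11b+, 3.53 ± 0.13 in CD103+ and 3.16 ± 0.12 in DP DCs on the log2 scale (adjusted p of the test = 2.7e-07), and Ldha likewise fell by 1.11 ± 0.10, 2.56 ± 0.11 and 2.41 ± 0.10 (6.2e-07). Aldoa differed in sign between subsets, with -0.31 ± 0.07 in CD11b+, 1.10 ± 0.08 in CD103+ and 0.33 ± 0.07 in DP DCs (9.5e-08), and Gapdh with -0.85 ± 0.09, 0.41 ± 0.09 and -0.62 ± 0.09 (2.1e-06). The remaining 4 genes had the same sign in every subset. Eno1 had -0.77 ± 0.10, -0.88 ± 0.10 and -1.87 ± 0.10 (1.0e-05), Pfkp had -0.62 ± 0.12, -1.52 ± 0.12 and -0.43 ± 0.12 (1.2e-04), and Slc2a1 had -0.77 ± 0.15, -1.05 ± 0.15 and -1.94 ± 0.15 (6.0e-04). Pkm had -0.68 ± 0.08, -0.22 ± 0.08 and -0.75 ± 0.08 (0.0024).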

How the results depend on the processing

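Of 371 recomputed counts of called genes over 29 alternatives, 349 stayed within 1.5 times the reported count. Without the fold limit the count was 9 in the tissue comparison of CD11b+ DCs (reported 2), 9 in that of DP DCs (4), 7 in LP CD103+ against CD11b+ (2), 1 in LP DP against CD11b+ (0), 5 in LP DP against CD103+ (3), 6 in LN DP against CD11b+ (3), 5 in LN DP against CD103+ (1), and 7 and 6 for the difference of tissue effects of CD103+ against CD11b+ (4) and of DP against CD103+ DCs (2). Total counts gave 1 in the tissue comparison of CD11b+ DCs and 1 in the last of these, which no filter on low counts also put at 1. LN DP against CD103+ gave 2 under DESeq2 size factors, 2 under the DESeq2 test, 2 with at least 100 counts in at least 3 libraries and 2 without both LN libraries that held Xist and Ddx3y reads. Leaving out 1 library gave 1 to 2 there and 1 to 3 for the difference of DP against CD103+ DCs. Beyond construction of the alternatives (fewer samples or genes, no limit), the cause was not tested. The counts over all 17074 genes rose without the fold limit too, and stand in the last paragraph. That for the difference of CD103+ against CD11b+ DCs is not given there.

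Signs turned only for values that were not called. With total counts Pfkl stood at -0.038 and Pgk1 at -0.21 between tissues in CD103+ DCs, Pgk1 at -0.0042 in LP DP against CD11b+, Pfkp at -0.15 and Pkm at -0.07 in LN CD103+ against CD11b+, and Pgk1 at -0.14 and Pkm at -0.26 in LN DP against CD11b+. For the difference of tissue effects against CD11b+ they gave Pfkl -0.35 in CD103+, and Pfkp -0.12, Pfkl -0.12, Gapdh -0.08 and Pgk1 -0.13 in DP DCs. Without a filter Pgk1 in CD103+ DCs was -0.041, Pfkl in LP DP against CD103+ -0.00063 and the difference for Pfkl -0.035. With only the libraries compared Pgk1 was -0.0015 and the difference for Pfkl -0.012, and without both Xist and Ddx3y libraries the difference for Pkm in DP against CD11b+ was 0.00012. Leaving out 1 library gave -0.05 to 0.043 for Pgk1 in CD103+ DCs, -0.042 to 0.10 for Pfkl in LP DP against CD103+, -0.07 to 0.13 for Ldha in LN DP against CD103+ and -0.17 to 0.10 for the difference for Pfkl.

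Of single-gene values under all alternatives, 3546 kept sign and call, 76 gained and 36 lost a call and 52 turned sign. With the replicate block over both tissues all 130 calls and non-calls of the members stayed as they were. Within tissue the replicate block left 99 of 100 and added Ldha in LN DP against CD11b+ (-1.0), which gave 4 called genes in place of 3. Over all genes, no fold limit moved the calls from 2600 to 4571 in the tissue comparison of CD11b+, from 5485 to 8467 in that of DP DCs, from 2684 to 4433 in LP CD103+ against CD11b+, from 821 to 1299 in LP DP against CD11b+, from 2326 to 4091 in LP DP against CD103+, from 4420 to 7329 in LN CD103+ against CD11b+, from 2857 to 5507 in LN DP against CD11b+, from 1115 to 2631 in LN DP against CD103+, from 1987 to 3192 in the difference of DP against CD11b+ and from 1429 to 2236 in the difference of DP against CD103+. LP DP against CD11b+ held 482 with only the libraries compared and 1289 at an adjusted p under 0.05, against 821. The smallest count of any of the 10 genes in a library was 68.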
